A study of Mus musculus with 8 samples.

Results

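The transcripts of 10 genes of the NF-κB pathway were compared between ventricles of RBX2iCKO mice and WT mice. They are 5 subunit genes (Nfkb1, Nfkb2, Rel, Rela and Relb), 3 genes of IκB inhibitors (Nfkbia, Nfkbib and Nfkbie), the kinase gene Ikbkb and Tnfaip3. The genes were chosen by symbol, and all 10 were found among the 35275 genes of the deposited table. RNA sequencing of polyA RNA gave 4 RBX2iCKO libraries and 4 WT libraries from minced heart ventricle. RBX2iCKO mice are adult knockouts of Rbx2, made with the tamoxifen-inducible recombinase Mer-Cre-Mer under the αMHC promoter, which is active in cardiomyocytes. RBX2, encoded by Rnf7, is a RING subunit of cullin ubiquitin ligases. Both groups are labelled as tamoxifen-treated. The labels give no age and do not state whether the WT mice carry Mer-Cre-Mer; titles in both groups begin with MCM, which is not spelled out. Nor do the labels state that each library is a separate mouse. The p-values therefore measure the spread between these libraries, which may be technical.

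NF-κB transcription factors are dimers of Rel-family subunits, held in the cytoplasm by IκB proteins. Signals from receptors of cytokines and microbial products activate the IκB kinase (IKK) complex, which marks IκB for ubiquitination and degradation and so frees the dimers. The ligase that recognises phosphorylated IκB contains a β-TrCP subunit, encoded by Btrc or Fbxw11, on a cullin scaffold. Freed dimers switch on genes of inflammation and survival, among them Nfkbia and Tnfaip3, whose products shut the signal down again.

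Promoter windows are shown because several of these genes are known targets of the pathway that they encode. RefSeq sequences on GRCm38.p6, reaching from 250 bases before the transcript start to 50 bases after it, matched 7 of the 10 genes; Nfkb1, Relb and Ikbkb had no entry. The windows were searched on both strands for the κB consensus, a motif of 10 bases that reads GGG, a purine, any base, 3 pyrimidines and CC. It was found in 4 of the 7 genes (Nfkb2, Rel, Nfkbia and Tnfaip3), against 6.55% of all 27025 genes in the table. Nfkb2 and Tnfaip3 had more than 1 window, so the 7 genes had 10 windows, of which 6 held a match. Of all 32851 windows 5.8% did. A gene was counted if any of its windows matched, and 1 matching window per gene is printed. The other window of Tnfaip3 had 0 matches. In all, 8 forms of the motif were searched, and the consensus was picked for printing after the matches of all 8 had been seen. The count depends on the form. The forms that open with GGGA, close with CC and hold T between, after 1, 2 or 3 free bases, were each found in 2 of the 7 genes, Nfkb2 and Nfkbia, and in 0.466%, 1.63% and 5.21% of all genes. With 4 free bases between GGGA and CC, 5 genes matched (the 4 of the consensus and Rela), as did 22.9% of all genes. The form that opens with GGG, has 2 free bases and then T up to CC was found in the same 4 genes as the consensus and in 1.89% of all genes. With 3 free bases after GGG, and with a looser form of the consensus that allows a purine at the third position and any base at the sixth, Nfkbie matched as well, for 5 genes, against 6.31% and 12.6% of all genes. Capitals mark matches to the consensus on either strand, and a match is a description of the letters, not evidence of a site in use.
Nfkbia, chr12:55492598-55492897, minus strand: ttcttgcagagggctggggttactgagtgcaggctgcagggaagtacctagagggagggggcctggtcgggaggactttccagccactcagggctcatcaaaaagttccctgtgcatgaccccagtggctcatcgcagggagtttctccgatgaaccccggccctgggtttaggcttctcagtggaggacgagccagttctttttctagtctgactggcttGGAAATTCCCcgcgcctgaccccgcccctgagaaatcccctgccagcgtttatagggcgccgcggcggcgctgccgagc
Tnfaip3, chr10:19015361-19015660, minus strand: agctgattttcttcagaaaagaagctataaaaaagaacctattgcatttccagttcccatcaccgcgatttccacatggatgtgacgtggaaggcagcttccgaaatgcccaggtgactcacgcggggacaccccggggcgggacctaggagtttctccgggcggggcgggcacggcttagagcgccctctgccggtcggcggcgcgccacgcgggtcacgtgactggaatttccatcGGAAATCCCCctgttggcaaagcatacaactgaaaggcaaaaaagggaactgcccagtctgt
Nfkb2, chr19:46304487-46304786, plus strand: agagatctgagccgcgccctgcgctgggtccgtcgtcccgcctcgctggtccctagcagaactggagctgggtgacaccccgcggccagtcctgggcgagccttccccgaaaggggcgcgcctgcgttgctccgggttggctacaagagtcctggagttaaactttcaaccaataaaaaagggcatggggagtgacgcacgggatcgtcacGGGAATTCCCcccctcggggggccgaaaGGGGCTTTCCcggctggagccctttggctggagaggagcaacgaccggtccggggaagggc
Rel, chr11:23770920-23771219, minus strand: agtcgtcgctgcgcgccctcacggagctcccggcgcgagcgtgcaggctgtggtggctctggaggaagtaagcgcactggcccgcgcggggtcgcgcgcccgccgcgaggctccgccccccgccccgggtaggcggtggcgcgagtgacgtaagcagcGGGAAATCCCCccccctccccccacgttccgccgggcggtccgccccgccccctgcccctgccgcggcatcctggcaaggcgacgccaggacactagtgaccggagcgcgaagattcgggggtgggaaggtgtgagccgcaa

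Several facts of the libraries bear on every value below. Totals behind the values ran from 18758692 to 23043686 fragments in RBX2iCKO and from 18513924 to 22558094 in WT. Rnf7 had 7.53, 7.08, 6.86 and 7.13 FPKM (fragments per length of gene and per size of library) in RBX2iCKO, against 36.7, 35.3, 40.7 and 36.5 FPKM in WT, or 19.2% of the WT level (limma adjusted p = 5.8e-07). Esr1 had 266 to 391 FPKM in RBX2iCKO and 0.203 to 2.06 FPKM in WT; the Mer parts of the recombinase derive from the estrogen receptor that Esr1 encodes, and effects of the transgene cannot be told apart from those of the deletion. The median log2 difference of the 13050 genes tested was 0.21, RBX2iCKO minus WT, and median-of-ratios scaling brought it to 0.00. Changes are therefore given both as deposited and after that scaling.

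The NF-κB genes that changed were higher in RBX2iCKO, and Nfkb1 alone was called on both scales. Of the 10 genes, 6 rose and 0 fell as deposited (limma on log2(FPKM + 1), two-sided, adjusted p under 0.05 over all genes), against 33.5% of all genes tested called higher and 3.52% called lower. After scaling 1 of the 10 rose and 0 fell, against 8.14% called higher and 11.6% called lower. Without RBX2iCKO replicate 3, for reasons given with the target genes, 5 of the 10 rose and 0 fell as deposited, against 33.7% of all genes called higher and 3.47% called lower. After scaling without that library 1 rose and 0 fell, against 9.73% higher and 11.9% lower. The groups did not overlap for 6 of the 10 as deposited, all higher in RBX2iCKO, where 34.0% of all genes lay higher without overlap and 3.79% lower. After scaling Nfkb1 and Tnfaip3 lay higher without overlap and Nfkbib lower, where 10.8% of all genes lay higher and 15.0% lower. The median log2 difference of the 10 was 0.34 as deposited and 0.12 after scaling, beside 0.21 and 0.00 for all genes tested.

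**Figure D1:**
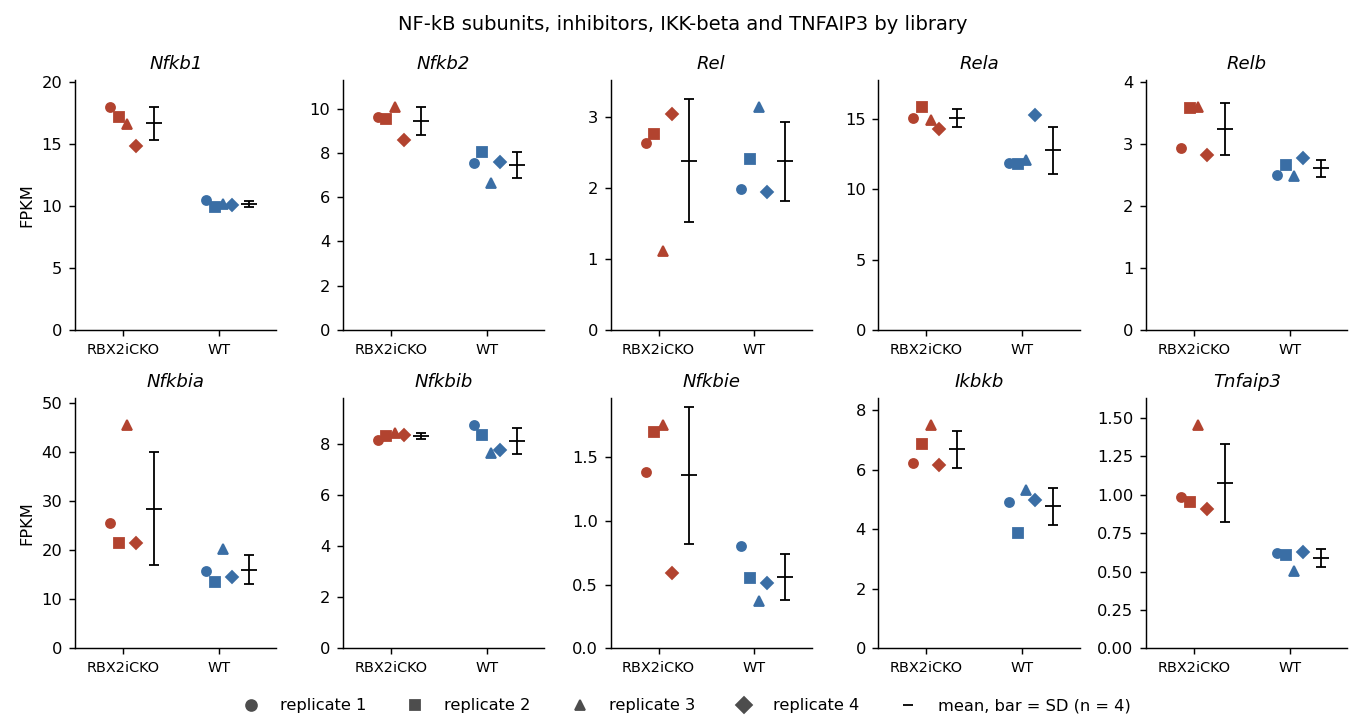
FPKM of each of the 10 genes in every library, with RBX2iCKO left of WT, 1 symbol per replicate, and the mean with its SD (n = 4) beside the points. Nfkb1 was at 14.8 FPKM or more in RBX2iCKO and at 10.4 FPKM or less in WT, and Nfkbia reached 45.4 FPKM in RBX2iCKO replicate 3.

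Nfkb1 (ENSMUSG00000028163, chromosome 3, 135584655 to 135691547, minus strand of mm10) encodes a precursor that is processed to a DNA-binding subunit of the classical NF-κB dimer. From 1276 to 1623 fragments per RBX2iCKO library and 795 to 936 per WT library, its levels were 18.0, 17.1, 16.6 and 14.8 FPKM in the RBX2iCKO libraries, against 10.4, 9.88, 10.2 and 10.1 FPKM in the WT libraries. Every RBX2iCKO library lay above every WT library, as it did after scaling. Nfkb1 rose 1.64-fold, to 16.6 ± 1.35 FPKM in RBX2iCKO, against 10.1 ± 0.227 FPKM in WT (SD, n = 4 each; log2 difference 0.66, SE 0.07, limma adjusted p = 0.000924). After scaling the log2 difference was 0.41 (limma adjusted p = 0.00459). Its difference as deposited was larger than that of 92.9% of the genes tested.

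Nfkb2 (chromosome 19, 46304320 to 46312385, plus strand) encodes the precursor of the subunit of the alternative, noncanonical pathway. It had 9.61, 9.51, 10.1 and 8.59 FPKM in RBX2iCKO, against 7.53, 8.06, 6.63 and 7.57 FPKM in WT. The groups did not overlap as deposited and overlapped after scaling. Nfkb2 rose 1.27-fold as deposited (log2 difference 0.31, SE 0.08, limma adjusted p = 0.0161), a call lost under scaling (log2 difference 0.065, limma adjusted p = 0.641). Its exons share 299 bases with Psd and 531 bases with a noncoding RNA on the opposite strand, and whether counting used strand is not given in the sources used here.

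Rela (chromosome 19, 5637483 to 5648130, plus strand), the transactivating subunit of the classical dimer, had 15.1, 15.9, 14.9 and 14.3 FPKM in RBX2iCKO, against 11.9, 11.8, 12.1 and 15.3 FPKM in WT. The groups overlapped through WT replicate 4. It differed by 0.23 on the log2 scale (SE 0.09, limma adjusted p = 0.0695), which turned to -0.025 after scaling (limma adjusted p = 0.859). Without WT replicate 4 it was 0.31 as deposited, with a limma adjusted p = 0.0160.

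Relb (chromosome 7, 19606217 to 19629438, minus strand), the partner of the processed Nfkb2 product, had 2.95, 3.59, 3.61 and 2.83 FPKM in RBX2iCKO, against 2.51, 2.66, 2.49 and 2.78 FPKM in WT. The groups did not overlap as deposited, but the difference of 0.23 on the log2 scale did not pass (SE 0.09, limma adjusted p = 0.0661) and was 0.026 after scaling. Without RBX2iCKO replicate 4 it passed as deposited (log2 difference 0.28, limma adjusted p = 0.0498).

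Rel (chromosome 11, 23736847 to 23770970, minus strand), the subunit of lymphoid and myeloid cells in particular, had 2.63, 2.76, 1.11 and 3.03 FPKM in RBX2iCKO, against 1.99, 2.41, 3.15 and 1.95 FPKM in WT. RBX2iCKO replicate 3 was the lowest library, with 60 fragments, and the log2 difference of -0.025 (SE 0.21, limma adjusted p = 0.927) was 0.19 without it (limma adjusted p = 0.266). After scaling it was -0.21 (limma adjusted p = 0.497). The SE of Rel was the second widest of the 10, after that of Nfkbia.

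Among the IκB inhibitors, Nfkbia and Nfkbie rose as deposited and Nfkbib did not pass. Nfkbia (chromosome 12, 55489410 to 55492647, minus strand) encodes IκBα, and its promoter window, shown above, holds the consensus 29 to 20 bases before the start. Nfkbia had 25.4, 21.5, 45.4 and 21.4 FPKM in RBX2iCKO, against 15.8, 13.6, 20.2 and 14.5 FPKM in WT. Every RBX2iCKO library lay above every WT library as deposited, and the groups overlapped after scaling. Nfkbia rose 1.77-fold, to 28.4 ± 11.5 FPKM in RBX2iCKO, against 16.0 ± 2.93 FPKM in WT (SD, n = 4 each; log2 difference 0.73, SE 0.23, limma adjusted p = 0.0321). It did not pass after scaling (log2 difference 0.48, limma adjusted p = 0.163). Without RBX2iCKO replicate 3 the rise was 1.42-fold (log2 difference 0.49, limma adjusted p = 0.0189), and 0.23 on the log2 scale after scaling (limma adjusted p = 0.211). The call as deposited was lost without RBX2iCKO replicate 1 (limma adjusted p = 0.0556) and without WT replicate 1, 2 or 4 (0.0632, 0.0846 and 0.0721 by the same limma fit). It was also lost with the number range of the library titles as a covariate (log2 difference 0.69, limma adjusted p = 0.0555) and with no filter on low values (0.0666).

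Nfkbie (chromosome 17, 45555703 to 45563169, plus strand), which encodes IκBε, had 1.39, 1.70, 1.75 and 0.591 FPKM in RBX2iCKO, against 0.803, 0.552, 0.370 and 0.512 FPKM in WT. RBX2iCKO replicate 4 lay within the WT range. These levels rest on 30 to 95 fragments per RBX2iCKO library and 18 to 36 per WT library. Nfkbie rose 2.43-fold as deposited (log2 difference 0.57, SE 0.18, limma adjusted p = 0.0341), and its log2 difference of 0.44 under scaling missed the threshold (limma adjusted p = 0.0965). The call was lost without any 1 of RBX2iCKO replicates 1, 2 and 3 and WT replicates 2, 3 and 4 (limma adjusted p = 0.0664 to 0.0876), and without RBX2iCKO replicate 4 the difference was 0.75 (limma adjusted p = 0.00617).

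Nfkbib (chromosome 7, 28758251 to 28767512, minus strand), which encodes IκBβ, had 8.15, 8.32, 8.42 and 8.33 FPKM in RBX2iCKO, against 8.73, 8.32, 7.63 and 7.74 FPKM in WT. Its 4 RBX2iCKO libraries lay within the range of WT. Its log2 difference of 0.033 (SE 0.07, limma adjusted p = 0.70) turned to -0.21 after scaling (limma adjusted p = 0.0756). Nfkbib shares 42 exon bases with Sirt2 and 314 with Ccer2 on the opposite strand.

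Ikbkb (chromosome 8, 22659212 to 22706589, minus strand) encodes IKKβ, the kinase that phosphorylates IκB in the classical pathway. It had 6.22, 6.85, 7.50 and 6.15 FPKM in RBX2iCKO, against 4.92, 3.88, 5.33 and 4.98 FPKM in WT, with no overlap as deposited and an overlap after scaling. Ikbkb rose 1.40-fold (log2 difference 0.41, SE 0.10, limma adjusted p = 0.0131), a call lost after scaling (log2 difference 0.18, limma adjusted p = 0.162).

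Tnfaip3 (chromosome 10, 19000910 to 19015657, minus strand) encodes the ubiquitin-editing enzyme that ends signalling from the tumour necrosis factor receptor. It had 0.989, 0.952, 1.45 and 0.908 FPKM in RBX2iCKO, against 0.619, 0.608, 0.505 and 0.629 FPKM in WT, from 115 to 174 fragments in RBX2iCKO and 63 to 88 in WT. The groups did not overlap on either scale. Tnfaip3 rose 1.82-fold as deposited (log2 difference 0.38, SE 0.11, limma adjusted p = 0.0232), and its log2 difference of 0.26 under scaling missed the threshold (limma adjusted p = 0.117). Without RBX2iCKO replicate 3, the highest library, the rise was 1.61-fold (limma adjusted p = 0.0363), and without WT replicate 3 the call was lost (limma adjusted p = 0.0557). Differences on the log2(FPKM + 1) scale understate the change of genes this low.

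**Figure D2:**
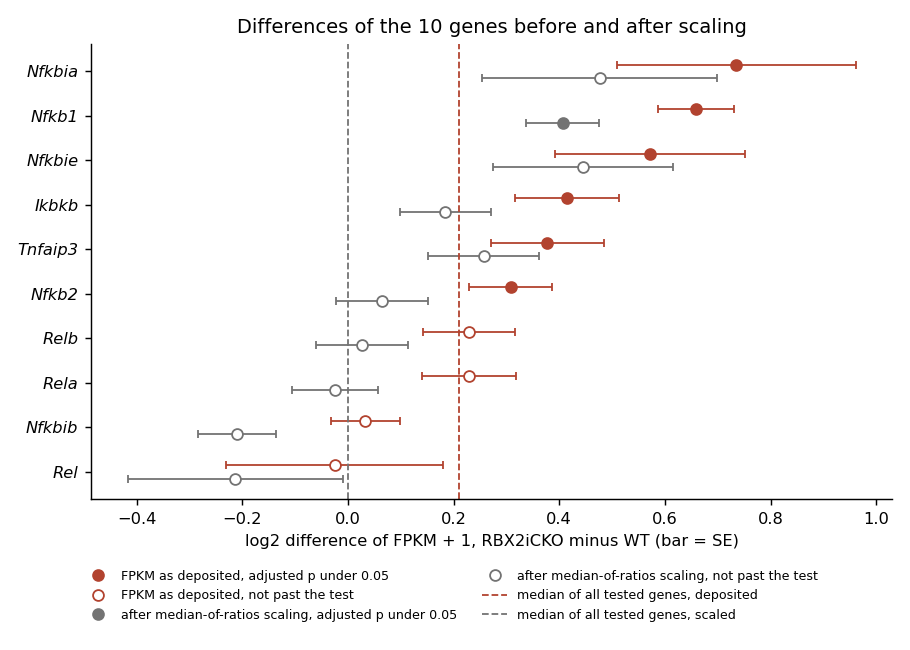
Log2 difference with its SE for each of the 10 genes, RBX2iCKO minus WT, as deposited and after median-of-ratios scaling, with dashed lines at the median of all genes tested. As deposited 6 genes have filled points, and after scaling Nfkb1 alone does.

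FPKM is per length, so levels can be ordered between genes, given the gene lengths behind the deposited values. Those lengths, as recovered from the values, were shorter than the GENCODE M21 exons. For Nfkb1 they were 4117 against 12061 bases, and for Ikbkb 4845 against 19078. The order with other lengths was not tested. In RBX2iCKO the order was Nfkbia, Nfkb1, Rela, Nfkb2, Nfkbib, Ikbkb, Relb, Rel, Nfkbie and Tnfaip3. In WT the order was Nfkbia, Rela, Nfkb1, Nfkbib, Nfkb2, Ikbkb, Relb, Rel, Tnfaip3 and Nfkbie. Library ranges of Nfkb1 and Rela overlapped in RBX2iCKO and did not in WT, where Rela was higher. Ranges of Nfkbia and Rela, which are neighbours in WT only, overlapped there, as did those of Nfkbib and Nfkb2. Ranges of Relb and Rel, and of Nfkbie and Tnfaip3, overlapped in both groups, and those of Rel and Nfkbie in RBX2iCKO.

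Ratios within a library do not depend on scaling, and 4 were compared. The log2 ratio of Nfkb2 over Nfkb1 was -0.90, -0.85, -0.72 and -0.78 in RBX2iCKO, against -0.47, -0.29, -0.62 and -0.41 in WT. All RBX2iCKO libraries were lower, by a mean difference of -0.37 (two-sided exact permutation p = 0.0286, the smallest that 70 assignments allow, and 0.114 adjusted over the 4 ratios). Nfkbia over Rela differed by 0.52 (exact permutation p = 0.114, adjusted 0.229), Nfkbia over Nfkb1 by 0.059 (p = 0.886 by the same exact test) and Relb over Rela by 0.061 (exact permutation p = 0.514). None of the 4 passed after adjustment. A ratio that alone reaches the smallest p of this exact permutation test adjusts to 0.114, so it could not pass. The test therefore cannot decide on Nfkb2 over Nfkb1.

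Genes with the most similar pattern over the 8 libraries were found by the root mean square difference of centred log2(FPKM + 1). For Nfkb1 they were Gdf6, Cnpy2 and Grb10, at 0.0365 to 0.0528. For Nfkbia they were Dtx3l, Ifih1 and Gbp2, at 0.0863 to 0.0920, and for Tnfaip3 they were Tut7, Phc2 and Tnrc6a, at 0.0426 to 0.0479. For Nfkb2 they were Akap13, Numa1 and Supt7l, for Rela Thoc5, Fanca and Thumpd1, for Relb Rnf40, Pyroxd1 and Pcsk7, and for Ikbkb Ptpn13, Trim3 and Nfrkb, at 0.0330 to 0.0447. Nfkbib was closest to Gtpbp1, Pomt1 and Dcaf8, at 0.0172 to 0.0346. Matches were loosest for Nfkbie (Slc16a3, Lpin3 and Il4ra, 0.124 to 0.133) and Rel (Gm18666, Deptor and Rapgef5, 0.14 to 0.157).

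The share of other pathway genes called was near that of all genes tested, and as over all genes fewer were called higher after scaling. Of 108 such genes in 8 lists, 92 were tested. As deposited 35 of the 92 rose and 2 fell, against 33.5% of all genes called higher and 3.52% called lower, and after scaling 11 rose and 7 fell, against 8.14% and 11.6%. The same shares of all genes are the background of each list below. The pair that fell as deposited was Rnf7 and the target Sod2, a mitochondrial superoxide dismutase. Rnf7, the deleted gene, was also among the 7 that fell after scaling, and its part in both counts was set by the design. The median log2 difference of the 92 was 0.31 as deposited and 0.10 after scaling, beside 0.21 and 0.00 for all genes tested.

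Receptors had 9 of 11 tested members called higher as deposited, against 33.5% of all genes, and 5 after scaling, against 8.14%, with 0 lower on either scale. This list, like the others, was chosen with earlier results of these data known, so its counts are a description and not a test. Tnfrsf1a, the main receptor of tumour necrosis factor, had 28.9, 28.3, 28.6 and 24.1 FPKM in RBX2iCKO, against 17.6, 14.8, 17.6 and 20.3 FPKM in WT. It rose 1.56-fold (limma adjusted p = 0.00329, and 0.0148 after scaling). Tnfrsf12a, the receptor of the cytokine TWEAK, averaged 52.5 ± 14.4 FPKM in RBX2iCKO and 21.1 ± 6.91 FPKM in WT (SD, n = 4 each; limma adjusted p = 0.00653, and 0.0163 after scaling). Tlr2, a receptor of bacterial lipoproteins, rose 2.21-fold, Il1r1, the interleukin-1 receptor, 1.67-fold, and its partner Il1rap 1.79-fold, each called on both scales, though Il1rap missed the threshold after scaling without RBX2iCKO replicate 3 (limma adjusted p = 0.0546). Of 5 ligands tested 1 rose on both scales, Tnfsf12, which encodes TWEAK, 1.62-fold, a call lost after scaling without that library (limma adjusted p = 0.0677). Il33, an alarmin, had 4.48 ± 2.28 FPKM in RBX2iCKO and 3.53 ± 1.22 FPKM in WT (SD, n = 4 each).

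Of 20 adaptors and ubiquitin enzymes of the signal, 7 rose as deposited, near the 33.5% of all genes, and after scaling 0 rose and 1 fell, against 8.14% and 11.6%. Rbck1, of the linear ubiquitin ligase, rose 1.36-fold, the kinase gene Irak4 1.61-fold, Birc3 1.46-fold and the adaptor gene Myd88 1.45-fold as deposited, and none of these 4 passed after scaling. After scaling without RBX2iCKO replicate 3, Irak4 alone of these passed (limma adjusted p = 0.0359). Irak1, the most abundant kinase of that list, had 23.5 ± 1.61 FPKM in RBX2iCKO and 22.8 ± 1.14 FPKM in WT (SD, n = 4 each). Of 8 other IKK and upstream kinases 4 rose as deposited, against 33.5% of all genes, and after scaling 2 rose and 1 fell, against 8.14% and 11.6%. Map3k14, the kinase of the noncanonical pathway, rose 1.77-fold and the IKK-related Ikbke 3.26-fold on the deposited scale, both called after scaling too. Ikbke was low throughout, at 0.554 to 1.01 FPKM in RBX2iCKO and 0.0931 to 0.326 FPKM in WT. Without RBX2iCKO replicate 3, Ikbke fell under the filter on low values and was not tested, and Map3k14 missed the threshold after scaling (limma adjusted p = 0.0518). Map3k3 and Tbk1 rose 1.27-fold and 1.28-fold as deposited only, and Map3k7 was lower after scaling alone (log2 difference -0.21, limma adjusted p = 0.0349, and 0.0556 without that library).

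Both other IκB family genes tested rose as deposited. Nfkbiz, a nuclear IκB, had 2.05, 2.05, 3.10 and 1.70 FPKM in RBX2iCKO, against 0.564, 0.542, 1.20 and 1.03 FPKM in WT, a 2.67-fold rise called on both scales. Bcl3, another nuclear IκB, rose 1.74-fold as deposited only. Of 13 other negative regulators 5 rose as deposited, near the 33.5% of all genes, and after scaling 2 rose and 1 fell, against 8.14% and 11.6%. Those called higher on both scales were Tnip2, 1.71-fold, and Pdlim2, 1.97-fold, while Tnip1 and the linear ubiquitin deubiquitinase gene Otulin, 1.47-fold and 1.55-fold, lost the call. Tax1bp1 and Rnf11, which act with Tnfaip3, averaged 41.1 ± 2.76 and 30.9 ± 2.12 FPKM in RBX2iCKO, against 35.8 ± 1.72 and 31.0 ± 0.901 FPKM in WT (SD, n = 4 each); Rnf11 was called lower after scaling alone, and not without RBX2iCKO replicate 3 (limma adjusted p = 0.0501).

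The list named for the IκB ubiquitin ligase also held the deleted gene Rnf7, Cul5, Ube2m and Ube2f. A place in that list does not mean that RBX2 is part of the ligase of IκB. Of the 9 genes in the list 4 rose and 1, Rnf7, fell as deposited, against 33.5% and 3.52% of all genes. After scaling 0 rose and 3 fell, against 8.14% and 11.6%. Rnf7 was among these 3 as well, and its fall was set by the design. Btrc and Fbxw11, the β-TrCP genes, rose 1.31-fold and 1.22-fold as deposited, with log2 differences of 0.094 and 0.018 and no call after scaling. Ube2m and Ube2f, which encode conjugating enzymes of the ubiquitin-like protein NEDD8, averaged 87.4 and 7.23 FPKM in RBX2iCKO, against 75.7 and 5.68 FPKM in WT, and were likewise called higher as deposited only; Ube2m lost that call without RBX2iCKO replicate 3 (limma adjusted p = 0.0840). Skp1a, the adaptor, had 82.5 ± 4.62 FPKM in RBX2iCKO and 87.8 ± 4.12 FPKM in WT (SD, n = 4 each), and was called lower after scaling alone.

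**Figure D3:**
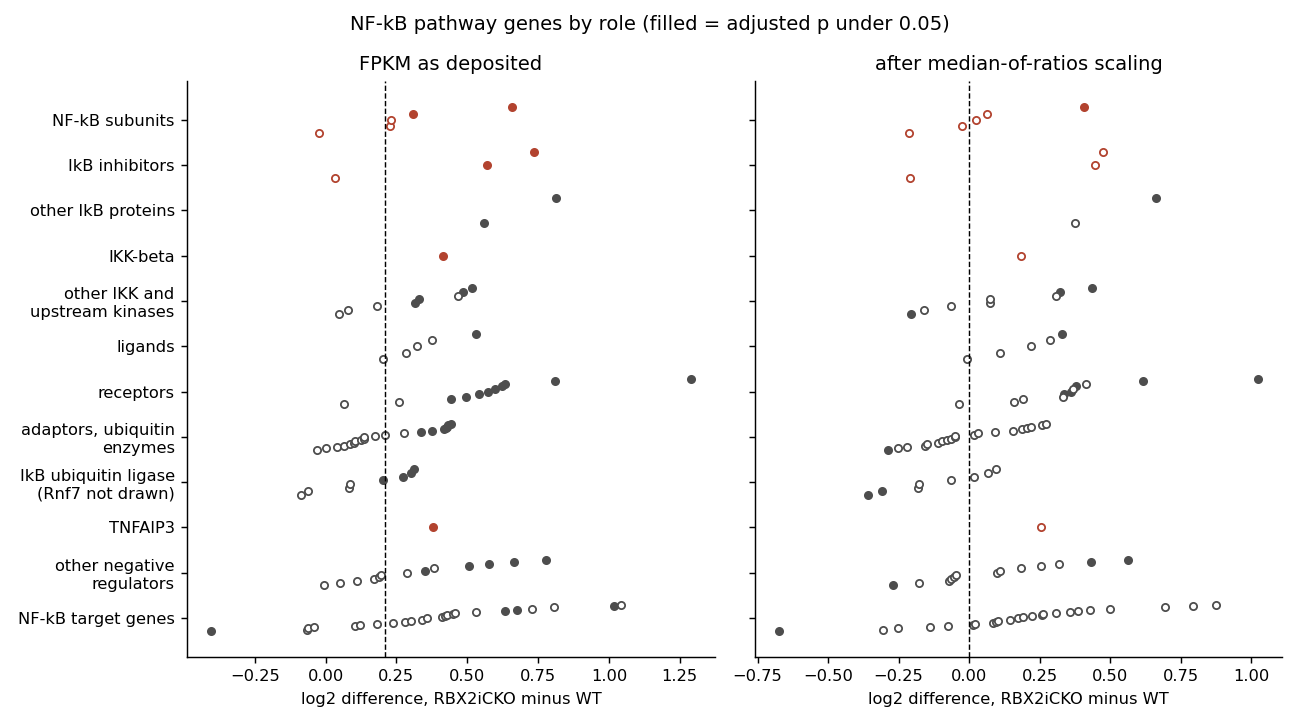
Log2 difference of every tested pathway gene except Rnf7 by role, RBX2iCKO minus WT. Values are as deposited on the left and after median-of-ratios scaling on the right, with a dashed line at the median of all genes tested. Filled points passed the test, and receptors hold 9 of them on the left and 5 on the right.

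Among NF-κB target genes 1 library stood above the rest for most of them. Of 24 tested targets 3 rose and 1 fell as deposited, against 33.5% and 3.52% of all genes, and after scaling 0 rose and 1 fell, against 8.14% and 11.6%. Gadd45b rose 2.39-fold, Junb 1.70-fold and Irf1 1.65-fold as deposited, and Sod2 fell to 124 ± 12.4 FPKM in RBX2iCKO, against 164 ± 9.89 FPKM in WT (SD, n = 4 each), on both scales. RBX2iCKO replicate 3 was the highest of the 8 libraries for 16 of the 24 targets and 6 of the 10 subunit, inhibitor and regulator genes, against 26.0% of all genes tested.

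In that library the chemokine gene Cxcl1 was at 5.6 FPKM, against at most 1.36 FPKM in the other 7. Icam1, a leukocyte adhesion molecule, was at 15.3 FPKM there, against at most 6.61 FPKM, and complement C3 at 164 FPKM, against at most 59.2 FPKM. Nos2 and Cd83 were lowest there, at 0.927 and 1.26 FPKM. Without this library 6 targets rose and 1 fell as deposited, against 33.7% and 3.47% of all genes. After scaling without it 2 rose and 2 fell, against 9.73% and 11.9%.

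**Figure D4:**
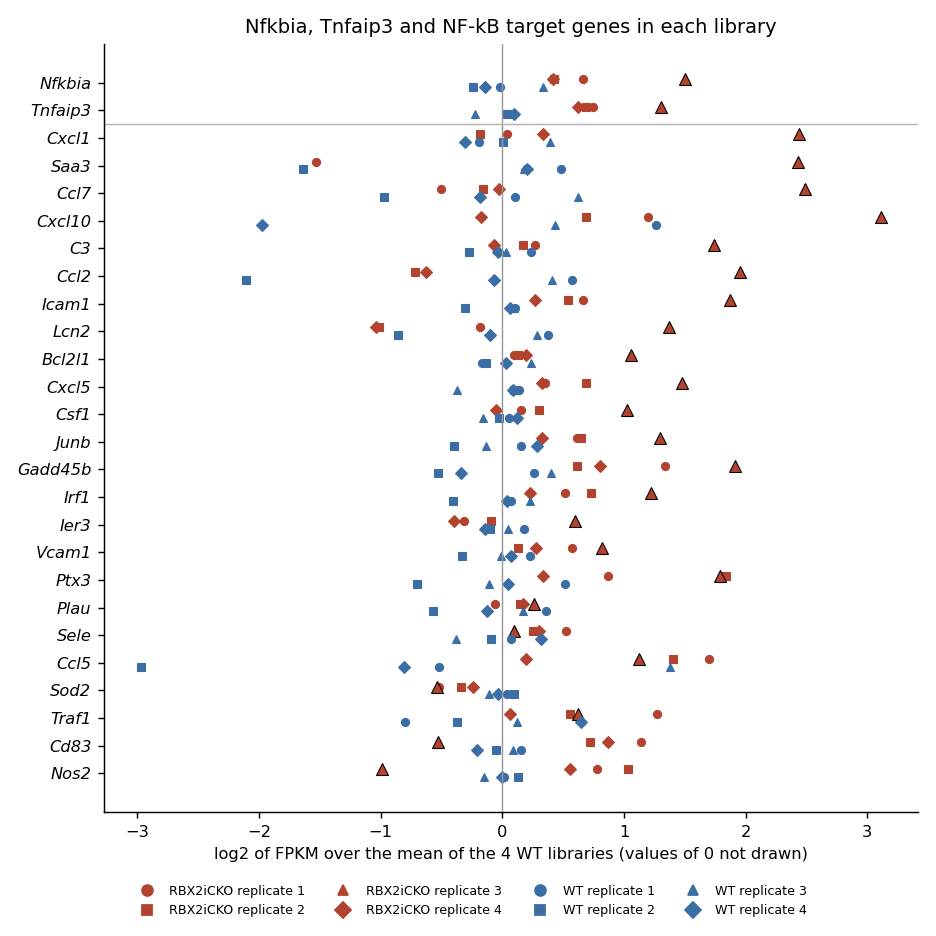
Log2 of FPKM over the WT mean for Nfkbia, Tnfaip3 and the 24 tested targets, by library, with RBX2iCKO drawn above WT in each row and RBX2iCKO replicate 3 outlined in black. It is the highest library for Nfkbia, Tnfaip3 and 16 targets.

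The labels call the cell type cardiomyocytes, but markers of other cells were present, and fewer cells of a type cannot be told apart from less RNA per cell. The summed FPKM of 14 cardiomyocyte markers was 40713 to 47772 in RBX2iCKO and 43347 to 45293 in WT, and of 13 fibroblast markers 1749 to 2773 in RBX2iCKO and 952 to 1414 in WT. Over all genes tested 33.5% were called higher and 3.52% lower as deposited, and 8.14% and 11.6% after scaling. These shares are the background of each marker list here. Of the fibroblast markers 12 of 13 were called higher as deposited and 10 after scaling. Of the cardiomyocyte markers 3 were called higher and 2 lower as deposited, and 0 and 3 after scaling. The sum of 15 macrophage markers was 215 to 432 in RBX2iCKO and 132 to 259 in WT, with 0 of them at 0 in any library. Of the 15, 6 were called higher as deposited and 2 after scaling, against 33.5% and 8.14% of all genes. Without RBX2iCKO replicate 3 these were 11 and 7, against 33.7% and 9.73% of all genes. The sum of 6 neutrophil markers was 6.8 to 32.6 in RBX2iCKO and 4.6 to 8.4 in WT, with Ly6g at 0 in at least 1 library and 3 of 4 tested called higher as deposited and 0 after scaling. Sums of 14 endothelial markers were 480 to 623 in RBX2iCKO and 342 to 445 in WT, and 6 of 14 were called higher as deposited, near the 33.5% of all genes, and 0 after scaling. T and NK cell markers summed to 4.0 to 14.0 in RBX2iCKO and 2.0 to 9.3 in WT, and B cell markers to 1.9 to 10.7 in RBX2iCKO and 1.8 to 22.7 in WT. Mural markers summed to 248 to 411 in RBX2iCKO and 302 to 389 in WT, and erythroid markers to 341 to 3622 in RBX2iCKO and 200 to 540 in WT. The erythroid sum of 3622 was that of RBX2iCKO replicate 1. RBX2iCKO replicates 2, 3 and 4 were at 341, 386 and 354, within the WT range. Of the 5 erythroid markers 0 were called on either scale. In RBX2iCKO replicate 3 the macrophage genes Csf1r, Mrc1 and Cd163 were at 3.44, 1.23 and 0.323 FPKM, below all other libraries. Adgre1 was at 12.8 FPKM, above them, the only 1 of the 15 markers highest there. Not all of the others were lowest in that library, where C1qa was at 30.8 FPKM, against 30.3 FPKM in WT replicate 3. Lyz2, abundant in the macrophage list, lay under 1 FPKM in RBX2iCKO replicate 2 and WT replicates 3 and 4. It lay between 67.4 and 113 FPKM in the other 5 libraries. Lyz2 is part of the macrophage sums, which were lowest in WT replicates 3 and 4, at 132 and 159. The order and the ranges of the sums depend on it. RBX2iCKO replicate 3 had a sum of 215 with Lyz2 at 84.5 FPKM, and WT replicate 2 a sum of 210 with Lyz2 at 75.5 FPKM. The sums therefore do not rank the libraries by macrophage content. RBX2iCKO replicate 2 had a sum of 278. The neutrophil genes S100a8 and S100a9 averaged 7.19 ± 4.31 and 8.89 ± 5.46 FPKM in RBX2iCKO, against 2.04 ± 0.632 and 2.73 ± 0.950 FPKM in WT (SD, n = 4 each). The target genes given for replicate 3 and the genes Csf1r, Mrc1, Cd163 and Adgre1 were named after their values were seen, and the part of any cell type in the NF-κB differences was not tested.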

How the data were processed

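Per the labels, polyA RNA of minced mouse ventricle was extracted with TRIzol and sequenced by Novogene. The build is mm10, per the submitters' processing notes, and no aligner, counter, annotation or strand setting is given in the sources used here. The authors deposited FPKM values, 1 column per library. Symbols and positions come from GENCODE M21, on the same build, which held 97.8% of the gene identifiers.

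Groups follow the genotype label. Genes with a mean of at least 0.5 FPKM were kept (13050), log2(FPKM + 1) was tested with limma 3.58.1 in R 4.3.3 (eBayes with trend, Benjamini-Hochberg over all genes, threshold 0.05), and folds are ratios of mean FPKM. Whole fragments were recovered from the FPKM steps for 100.0% of tested genes, with a tolerance of 0.01, and gave the library totals. The annotated exon length gave whole fragments for 1333 of the 13050 genes. For the rest the shortest length that did so was used. No pair of replicates was a repeat of 1 library (chi-square per degree of freedom over genes 10.8 to 64.2). The fit was also run on simulated data with 200 changed genes. There the spread between libraries was set alike for all genes and both groups, from WT, with no shift common to all genes. That run therefore does not test the p-values under the shift and the wider spread of RBX2iCKO libraries seen here. Ratios used exact permutation tests in scipy 1.17.1.

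The genes and lists were chosen with earlier results of these data known. Besides the 10 genes, Rnf7 and Esr1, the text names up to 4 called genes of smallest p and the pair of highest mean FPKM per pathway list; exceptions are stated or belong to the targets shown by library. Of 8 κB motif forms searched, the one printed was chosen after all matches were seen. Alternatives covered the pseudocount, filter, scaling, mitochondrial-encoded genes, voom, a title-number covariate, array weights and leaving out each library.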

Additional observations from a re-analysis of the deposited data

Results flagged for a closer look

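Libraries far from the other 3 of their group were sought in 102 sets of 4 libraries, 1 per group for each gene or ratio. The sets covered the 10 genes, Rnf7, Esr1, the ratios and the pathway genes named for small p or high level. Of these sets 8 held such a library, and chance alone gives about 1 in 20. Marker genes and the remaining list genes were not checked, so the count is not complete. Among those, RBX2iCKO replicate 1 had 1898 FPKM of Hbb-bs, against 164 to 190 FPKM in the other RBX2iCKO libraries. RBX2iCKO replicate 3 had 3.70 FPKM of Map3k8, against 1.45 to 1.79 FPKM.

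RBX2iCKO replicate 3 was apart for Nfkbia, at 45.45 FPKM against 21.42 to 25.42 FPKM in the other RBX2iCKO libraries. The same library was apart for Tnfaip3, at 1.455 FPKM against 0.908 to 0.989 FPKM, for the kinase gene Tbk1, at 9.643 FPKM against 7.666 to 8.003 FPKM, and for C3, at 164 FPKM against 46.93 to 59.18 FPKM. RBX2iCKO replicate 4 was the lowest of its group for Tnfrsf1a, at 24.12 FPKM against 28.3 to 28.88 FPKM. WT replicate 4 was apart for Rela, at 15.29 FPKM against 11.82 to 12.07 FPKM, and for Il1r1, at 3.773 FPKM against 2.796 to 2.945 FPKM. WT replicate 1 was apart for Il33, at 5.35 FPKM against 2.844 to 3.015 FPKM.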

How the results depend on the processing

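Nfkb1 kept its direction and its call in all alternatives run, with log2 differences from 0.40 to 0.71. The other calls depended on scaling. The number of the 10 genes called higher was 6 as deposited, 1 with median-of-ratios scaling, with quantile normalization, with voom at median-of-ratios size and with scaling without RBX2iCKO replicate 3, and 2 with mitochondrial-encoded genes removed; 0 were called lower in each. It was 4 with no filter on low values, where Nfkbia and Nfkbie lost their calls, and with a mean of at least 1 FPKM, which leaves Nfkbie and Tnfaip3 untested, and 5 with the title-number covariate, where Nfkbia lost its call, and with array weights, where Nfkbie did. Over all genes, scaling gave 1062 genes higher and 1512 lower, quantile normalization 864 and 1241, voom at median-of-ratios size 1124 and 1426, scaling without that library 1264 and 1545, and removal of mitochondrial-encoded genes 2080 and 711. In that order, other pathway genes called higher numbered 11, 7, 10, 10 and 22, and called lower 7 with scaling, 7 with that voom fit and 5 with scaling without that library. Leaving out 1 library gave 4 to 7 of the 10 genes, 27 to 36 other pathway genes, and 2897 to 4375 genes higher in all, the lowest without WT replicate 2, and 328 to 451 lower.

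Signs turned only among values that did not pass. Nfkbib was -0.21 with median-of-ratios scaling, with quantile normalization and with voom at median-of-ratios size, -0.073 with mitochondrial-encoded genes removed and -0.22 with scaling without RBX2iCKO replicate 3. Rela was -0.025 with scaling, -0.013 with voom at median-of-ratios size and -0.026 with scaling without that library, and Relb was -0.054 with quantile normalization and -0.018 with scaling without that library. Rel was 0.14 with array weights and ran from -0.12 to 0.19 with 1 library left out. The log2 ratio of Nfkbia over Nfkb1 ran from -0.19 to 0.18 with 1 library left out. The cause of these changes was not tested. With 1 library left out an exact permutation of a ratio cannot pass the threshold, so those fits say nothing on stability. Scaling without RBX2iCKO replicate 3 was chosen after the data were seen. No paired analysis was possible because the labels give no replicate numbers shared between the groups. Low counts limit Nfkbie and Tnfaip3 most.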
